A study of Physcomitrium patens with 8 samples.

Results

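Among the moss transcripts measured here, 200 array probes showed a higher signal in the autophagy-deficient atg5 line than in wild type (WT) after rehydration, and a similar signal in both genotypes in 3 other states. They stand for 176 loci, out of 38181 gene probes of 32103 loci on the array. The choice was made on measured ratios. A probe was taken if it was well above background in both dyes on all 8 arrays, which 5475 probes were. Its log2 ratio of atg5 over WT then had to be at least 0.8 in Rehydration and below 0.4 in absolute size in Hydration, ABA and Dehydration. The ratio is that of the scanner software's processed signals, centred on each array's median and averaged over 2 replicates. Without the limit on the other 3 treatments, 683 probes reached 0.8 in Rehydration. The atg5 over WT ratios of the chosen probes are therefore a description here and carry no test.

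The samples were protonemata of Physcomitrium patens, the filamentous stage that grows from a moss spore. Each array held RNA of atg5, a knockout of autophagy related gene 5 that the labels describe as deficient in autophagy, beside RNA of WT after the same treatment. Both genotypes were grown at 25 °C under continuous light on a nutrient-sufficient agar medium with ammonium tartrate and glucose. The groups were atg5 and WT in each of 4 treatments, with 2 arrays per treatment that the labels call biological replicates. Hydration means colonies cultured for 7 days. ABA means such colonies after 24 h on 50 µM abscisic acid, Dehydration means colonies kept for 24 h over silica gel, and Rehydration means dried colonies put back on fresh medium for 24 h. Whether the dried colonies had been given abscisic acid first is not stated, and 1 knockout line is named. In replicate 1 atg5 carried Cy5 and WT carried Cy3, and in replicate 2 the dyes were exchanged.

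Autophagy encloses cytoplasm and organelles in double-membraned vesicles and delivers them to the vacuole for breakdown and reuse. ATG5 is part of the conjugation machinery that attaches ATG8 to the growing membrane. Abscisic acid is the plant hormone of water shortage, and in moss protonemata it raises tolerance of drying. Rehydration ends the dry state and lets growth resume. None (0) of the 200 chosen identifiers occurred in the given RefSeq table of 27567 genes, and the array files hold neither gene names nor probe sequences. The transcripts are therefore given by model identifier, as scaffold, gene number and model version, with no role.

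The Rehydration arrays stood apart from the others. On them 29.2% (replicate 1) and 23.4% (replicate 2) of the gene spots were well above background in atg5, and 19.3% and 30.6% in WT. On the other 6 arrays the share was 37.1 to 50.5% in atg5 and 39.0 to 53.5% in WT. Every value for Rehydration below rests on these 2 arrays. Saturated gene spots numbered 0 throughout, and 13 of the 200 probes had a spot with an outlier mark on at least 1 array.

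In Rehydration the 200 ratios ranged from a log2 of 0.80 to 2.88, with a median of 1.02, and 107 of them were at least 2-fold and 9 at least 3-fold. On replicate 1 they ran from 0.015 to 2.72 with a median of 1.02, and on replicate 2 from 0.31 to 3.05 with a median of 1.09. All 200 were above 0 on both arrays, and 116 reached 0.8 on both. The SD between the replicates had a median of 0.23. In 177 of the 200 both atg5 levels lay above both WT levels, as they did in 29.7% of the 5475 probes, a count that the choice largely fixes. In the other treatments the median ratio was 0.0018 in Hydration, -0.0038 in ABA and 0.053 in Dehydration. Single arrays there ranged from -0.87 to 0.83.

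**Figure D1:**
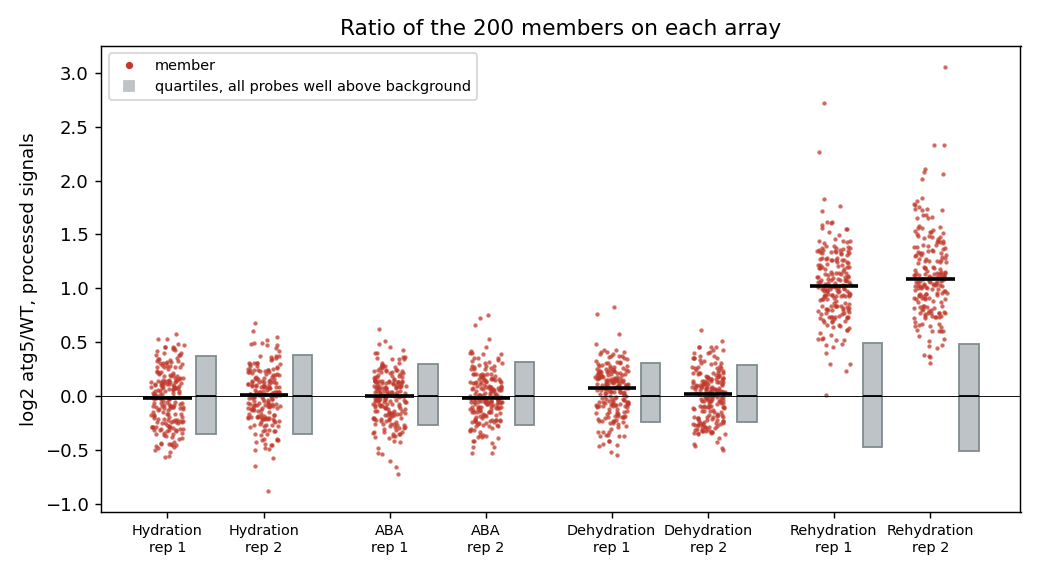
Log2 ratio of atg5 over WT (vertical axis) of the 200 chosen probes on each of the 8 arrays, 1 point per probe, with a black line at the median and a grey box for the quartiles of all 5475 probes well above background. The points lie around 0 on 6 arrays and around 1.02 and 1.09 on the 2 Rehydration arrays.

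The threshold cuts through a continuous range. Just inside it, the ratios in Rehydration were 0.800 for Pp1s56_241V6.1, 0.803 for Pp1s255_3V6.1 and 0.803 for Pp1s9_361V6.1. Just outside it, they were 0.796 for Pp1s150_74V6.1, 0.796 for Pp1s17_265V6.2 and 0.789 for Pp1s311_78V6.2. The ratio also depended on the processing. With background correction by normexp and loess normalization within each array, the median of the 200 in Rehydration was 0.53, against 0.0053 over all probes tested. All 200 remained above 0 under these settings, but only 37 reached 0.8 when centred in the same way. This correction adds an offset of 50 to every signal, which by construction draws the ratios of dim spots toward 0. Its part in the smaller values was not tested.

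**Figure D2:**
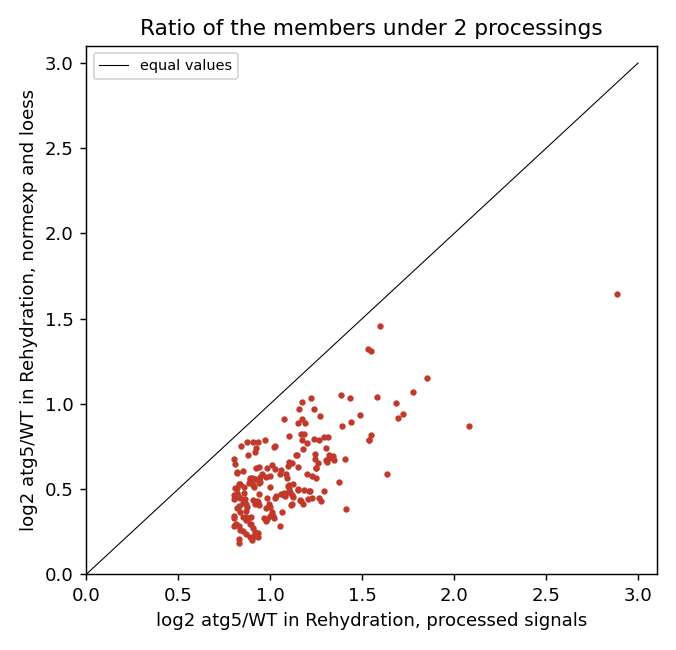
Log2 ratio of atg5 over WT in Rehydration for the 200 chosen probes, with processed signals on the horizontal axis and with normexp and loess on the vertical axis. Every point lies below the line of equal values, with medians of 1.02 and 0.53.

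In limma's fit of the loess ratios 168 of the 200 were higher in atg5 in Rehydration at a Benjamini-Hochberg adjusted p under 0.05, and 0 were lower. Over all 19732 probes tested 7.07% were called higher and 7.4% lower. Of those well above background throughout 16.6% were higher and 19.4% lower. The choice used this contrast, so nothing is read from that count. It was 126 without Rehydration replicate 1 and 71 without Rehydration replicate 2, where 4.36% and 2.29% of all probes were called. With median centring in place of loess limma called 0 of all probes and so 0 of the 200, of which 124 had an unadjusted p under 0.05. In Hydration 10 of 199 were higher and 24 lower (15.5% and 16.4% of all probes), in ABA 1 and 3 of 200 (8.57% and 4.88%), and in Dehydration 10 and 4 of 199 (12.3% and 6.55%). Of the probes well above background throughout, 22.5% and 25% were called in Hydration, 16.8% and 9.14% in ABA, and 19.8% and 10.1% in Dehydration. A block for replicate number gave, as called higher, 20 in Hydration, 6 in ABA and 29 in Dehydration, against 20.4%, 13.3% and 17% of all probes under the same block. The choice also capped the ratio in these 3 treatments, so nothing is read from these counts either.

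The ratio was then split into the level of each genotype. A level here is the log2 processed signal relative to the median of the 5475 probes on the same array. The median level of the 200 in atg5 was 0.31 in Hydration, 0.47 in ABA, 0.54 in Dehydration and 0.41 in Rehydration. In WT it was 0.36, 0.43, 0.55 and -0.77 in the same order. The atg5 median thus stayed within a narrow range over the 4 states, and the WT median was low in Rehydration only. Fewer cells of a type and less RNA per cell cannot be told apart in such bulk samples.

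From Dehydration to Rehydration the level of the 200 changed by a median of 0.016 in atg5 (-2.49 to 4.47) and by -1.03 in WT (-4.78 to 3.15). Over the 5475 probes the medians were -0.013 in atg5 and 0.059 in WT. WT was at least 2-fold lower in Rehydration at 103 of the 200, against 15.2% of the 5475. The atg5 line was at least 2-fold higher at 30 of the 200, or 15%, against 12.9% of the 5475. At 80 probes, or 40%, atg5 was higher and WT lower than in the dried state, against 8.93% of the 5475. Both were lower at 99, or 49.5%, against 38.6%, and both were higher at 21, or 10.5%, against 40.3%. Against Hydration, the rehydrated atg5 level lay nearer its own well-watered level than WT did at 125 of the 200, and at 52.3% of the 5475. The choice fixes that the change into Rehydration was more upward in atg5 than in WT at each of the 200. The shares above thus describe the choice and carry no test.

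**Figure D3:**
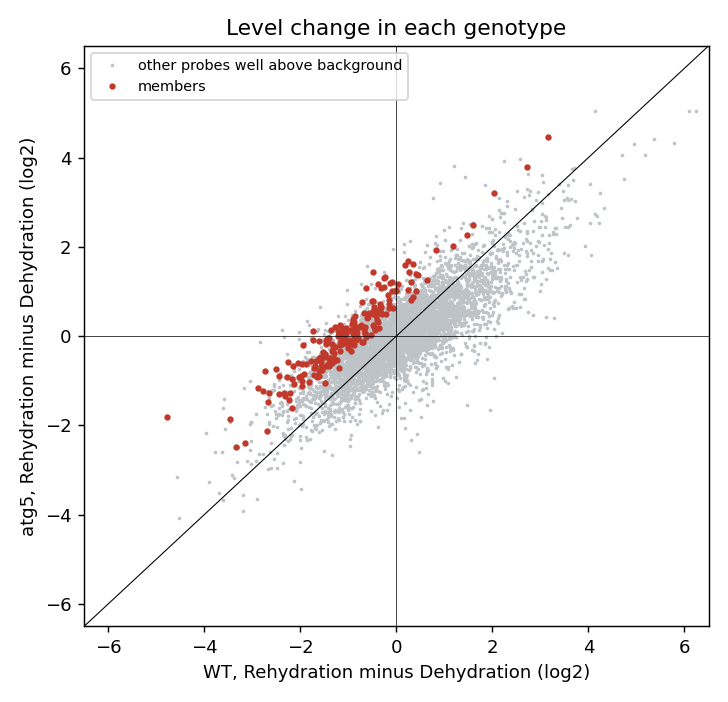
Change of the log2 level from Dehydration to Rehydration in WT (horizontal axis) and in atg5 (vertical axis), with the 200 chosen probes in red, the other probes well above background in grey and a line of equal change. The red points lie above that line, which the choice fixes, with medians of 0.016 in atg5 and -1.03 in WT.

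The same was seen within each genotype by rank. Both rehydrated atg5 levels lay below the other 6 atg5 levels at 21 of the 200 (14% of the 5475) and above them at 38 (14.9%). Both rehydrated WT levels lay below the other 6 WT levels at 108 of the 200 (17.8% of the 5475) and above them at 1 (21.9%). A low WT level in Rehydration raises the ratio that chose the probes, so these counts describe the choice and carry no test. The 214 probes lowered in atg5 after rehydration only, taken with the same thresholds turned round, gave the mirror image. Their median change from Dehydration to Rehydration was 0.11 in atg5 and 1.04 in WT. In both sets the larger median change was that of WT. Over the 5475 probes the quartiles of this change were -0.62 and 0.80 in WT, against -0.53 and 0.54 in atg5. The change was thus wider in WT over all these probes, and nothing about either set is read from its larger median in WT.

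These levels are relative to the array median. When arrays were scaled on their 320 spike-in spots instead, the average level of both genotypes from Dehydration to Rehydration changed by a median of -1.43 over all probes tested and of -2.81 over the 200. The probes tested met a looser condition on the background than the 200. The average also holds the rehydrated WT signal that the choice draws low. Nothing about the 200 is therefore read from the gap between these medians. The steady median in atg5 holds relative to the other transcripts on the array, and the level of atg5 alone was not computed on the spike-in scale.

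The average level of both genotypes on an array was also compared between treatments, with limma on normexp and loess values with quantile normalization between arrays. In Rehydration this average holds the WT signal that the choice draws low. Its 2 comparisons with Rehydration are therefore given as a description. Nothing about the 200 is read from their counts, nor from the calls of single probes in them, which are named to show their values. Between Rehydration and Dehydration 48 of 199 were called lower and 23 higher at an adjusted p under 0.05, and 128 were not called. Of all probes tested 15.4% were called lower and 12.5% higher, and of those well above background throughout 11.2% and 27.3%. The median difference was -0.16 for the chosen probes, -0.077 for all tested and 0.20 for those well above background. With processed signals 67 were lower and 8 higher, against 13.9% and 13.6% of all probes. With spike-in scaling 192 were lower and 0 higher (0 at an unadjusted p under 0.05), against 81.9% and 0.0914% of all probes. Without Dehydration replicate 1 the counts were 21 lower and 15 higher, and without Dehydration replicate 2 they were 23 and 12, where 6.87% and 7.49%, and 6.97% and 7.74%, of all probes were called.

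Pp1s10_341V6.1 had the largest decrease among those called. Its average log2 signal was 9.27 and 9.02 on the Rehydration arrays, against 11.55 and 11.74 on the Dehydration arrays. That is 5.66-fold lower (-2.50 ± 0.141 SE, n = 2 arrays each). Pp1s249_6V6.1 had 8.24 and 9.03 in Rehydration, against 10.58 and 10.65 in Dehydration, and was 3.94-fold lower (-1.98 ± 0.354). Replicates of neither probe overlapped between the 2 states, but Pp1s249_6V6.1 was no longer called without either Dehydration replicate. Pp1s20_253V6.1 went the other way, with 9.54 and 9.60 in Rehydration, against 6.77 and 6.76 in Dehydration. It was 7.01-fold higher (2.81 ± 0.0798) and stood low in all 3 earlier states, at 6.62 to 6.94. Pp1s352_59V6.1 was 3.89-fold higher (1.96 ± 0.402), with 9.06 and 9.19 in Rehydration and a wider spread, 6.53 and 7.79, in Dehydration. It was not called without Rehydration replicate 2 or with the 4 arrays alone. With spike-in scaling Pp1s352_59V6.1 was lower in Rehydration instead, at -0.29, and Pp1s20_253V6.1 gave 0.58 and was not called (limma adjusted p = 0.0682).

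Between Rehydration and Hydration 41 of 199 were called higher and 49 lower, against 14.5% and 19.8% of all probes and 29.2% and 16.5% of those well above background. With processed signals 20 were higher and 50 lower, against 13.3% and 16.6% of all probes. With spike-in scaling 2 were higher and 173 lower, against 0.741% and 66.3% of all probes. Without Hydration replicate 1 the lower were 26, and without Hydration replicate 2 they were 25, where 11.2% and 11.6% of all probes were lower. The largest increases among those called were those of Pp1s289_66V6.1, 49.2-fold (5.62 ± 0.119, n = 2 each), and Pp1s2_15V6.2, 6.64-fold (2.73 ± 0.481). With spike-in scaling Pp1s2_15V6.2 gave 0.33 and was not called (limma adjusted p = 0.580). Pp1s2_15V6.2 had 11.30 and 11.17 in Rehydration, against 7.87 and 9.14 in Hydration. Pp1s10_341V6.1 was 7.02-fold lower (-2.81 ± 0.141) and Pp1s249_6V6.1 5.90-fold lower (-2.56 ± 0.354).

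On abscisic acid 39 of 199 rose relative to Hydration and 17 fell at an adjusted p under 0.05. In this comparison and the next no Rehydration signal enters the levels compared, though the choice limited the ratio of both genotypes on these arrays. All probes gave 8.72% risen and 11.6% fallen, 20.3% together, and those well above background 14% and 18.1%. With processed signals 34 rose and 8 fell, against 9.26% and 15.5% of all probes, and with spike-in scaling 18 and 10, against 4.18% and 9.3%. The risen were 25 without ABA replicate 2, and the fallen were 8 without ABA replicate 1, 8 without Hydration replicate 1 and 7 without Hydration replicate 2. All probes gave 5.51% risen in that fit without ABA replicate 2, and 7.36%, 6.43% and 6.4% fallen in the other 3. Pp1s289_66V6.1 had 12.32 and 12.55 on ABA, against 7.11 and 7.11 in Hydration, a 40.2-fold rise (5.33 ± 0.119, n = 2 each, limma adjusted p = 2.2e-05). Pp1s468_3V6.1 rose 4.92-fold (2.30 ± 0.124, limma adjusted p = 0.000241), with 11.64 and 11.41 on ABA, against 9.24 and 9.22 in Hydration. Pp1s222_123V6.2 gave 3.80, but 1 ABA array alone measured it after marked spots were left out. Pp1s222_123V6.1, of the same locus, was not called (2.27 ± 1.44, limma adjusted p = 0.349). Pp1s78_54V6.1 was 3.13-fold lower (-1.64 ± 0.325, limma adjusted p = 0.0204) and Pp1s378_8V6.1 2.43-fold lower (-1.28 ± 0.0802, limma adjusted p = 0.000398). Pp1s78_54V6.1 lost its call without ABA replicate 1 (limma adjusted p = 0.0980) and without either Hydration replicate (0.0781 and 0.1000).

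In dried colonies 46 of 198 rose relative to Hydration and 22 fell. Over all probes 10.8% rose and 12.9% fell, and over those well above background 16.8% and 20.2%. With processed signals 40 rose and 11 fell, against 11.8% and 15.4% of all probes, and with spike-in scaling 77 rose and 2 fell, against 16.4% and 4.28%. The risen were 28 without Dehydration replicate 1, and the fallen were 13 and 10 without Dehydration replicates 1 and 2 and 8 without either Hydration replicate. All probes gave 6.07% risen without Dehydration replicate 1, and 7.37 to 8.65% fallen over these 4 fits. Pp1s289_66V6.1 rose 102-fold (6.68 ± 0.119, n = 2 each, limma adjusted p = 8.68e-06), to 13.86 and 13.70. Over the other settings its log2 rise was 6.60 to 7.79. Pp1s222_123V6.2 rose 13.8-fold (3.79 ± 0.326, limma adjusted p = 0.00246), with 10.85 and 10.60 in Dehydration, against 7.17 and 6.70 in Hydration. The other chosen probe of its locus, Pp1s222_123V6.1, was not called (1.82 ± 1.44, limma adjusted p = 0.431). It had 10.81 and 7.08 in Dehydration, against 7.20 and 7.06 in Hydration. Pp1s275_35V6.4 was 3.35-fold lower (-1.74 ± 0.328, limma adjusted p = 0.0156), with 7.81 and 6.77 in Dehydration, against 8.93 and 9.14 in Hydration. It lost its call without either Hydration replicate (limma adjusted p = 0.0634 and 0.0820) and with the 4 arrays alone (0.0574). Pp1s378_8V6.1 was 2.62-fold lower (-1.39 ± 0.0802, limma adjusted p = 0.000262). ABA and Dehydration were set against the same Hydration arrays.

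**Figure D4:**
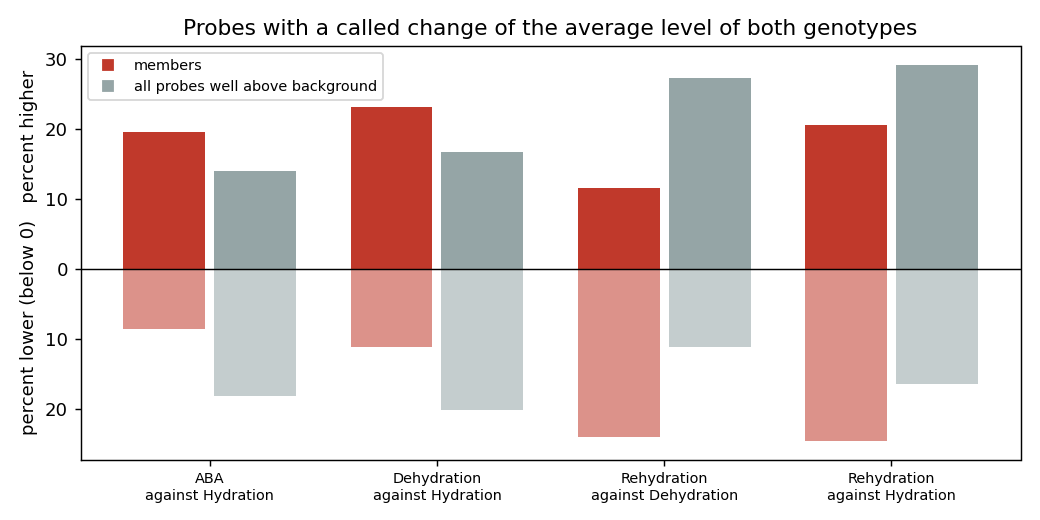
Percent of probes whose average level of both genotypes was called higher (bars above 0) or lower (bars below 0) by limma in 4 comparisons, for the chosen probes in red and all probes well above background in grey. From Dehydration to Rehydration 24.1% of the chosen probes were called lower and 11.6% higher, against 11.2% and 27.3% of all probes well above background, a contrast that the choice of probes with a low rehydrated WT signal can draw.

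The 10 largest ratios show several courses over the states. Pp1s10_341V6.1, with the largest, had levels of 1.82 and 2.41 in rehydrated atg5, against -0.90 and -0.64 in rehydrated WT. In Dehydration it had 3.96 and 3.90 in atg5, against 3.93 and 4.09 in WT, and in Hydration 4.19 and 4.13 in atg5, against 4.25 and 3.88 in WT. Its ratio of 2.88 was a 7.38-fold difference. Both genotypes were thus lower after rehydration than before, and WT by more. On ABA its replicates disagreed, with 4.65 and 1.66 in atg5 and 4.37 and 1.59 in WT, and the second spot carried an outlier mark.

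Pp1s104_200V6.1 had levels of -0.26 and -0.44 in rehydrated atg5, against -2.09 and -2.77 in rehydrated WT, a 4.23-fold difference. These WT levels were near the lowest of the 5475 probes on the same arrays, -2.31 and -3.33. With normexp and loess its log2 ratio was 0.87. Dried colonies had 0.44 and 0.42 in atg5, against 0.32 and 0.29 in WT. Its average level was called higher in Dehydration than in Hydration (1.40 ± 0.148, limma adjusted p = 0.00223) and was lower in Rehydration than in Dehydration (-0.84 ± 0.148). Rehydrated WT was below well-watered WT, at -1.46 and -1.40, and rehydrated atg5 above well-watered atg5, at -1.12 and -1.30.

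Pp1s90_44V6.2 was high on ABA and in the dried state. It had 2.19 and 1.91 in atg5, against 1.99 and 2.09 in WT, on ABA, and 2.17 and 2.04 in atg5, against 1.95 and 2.08 in WT, when dried. After rehydration it had 0.34 and 0.15 in atg5, against -1.38 and -1.52 in WT. The well-watered levels were -0.53 and -0.64 in atg5, against -0.58 and -0.44 in WT. Its average level rose on ABA (2.10 ± 0.107, n = 2 each, limma adjusted p = 0.000209) and when dried (2.15 ± 0.107, limma adjusted p = 0.000166), and was lower in Rehydration than in the dried state (-1.79 ± 0.107).

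Pp1s215_63V6.1 and Pp1s1_309V6.1 differed from these in that rehydrated atg5 stood above every earlier level. Pp1s215_63V6.1 had 1.32 and 1.44 in rehydrated atg5, against -0.03 and -0.37 in rehydrated WT. Its other levels were 0.31 to 0.67 in atg5 and 0.28 to 0.62 in WT. Pp1s1_309V6.1 had 1.28 and 1.38 in rehydrated atg5, against -0.22 and -0.69 in rehydrated WT. In its dried colonies the levels were 0.26 and 0.22 in atg5, against 0.18 and 0.20 in WT. Pp1s215_63V6.1 thus lay outside its earlier range in opposite directions in the 2 genotypes, and Pp1s1_309V6.1 in atg5 only.

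Pp1s223_95V6.1 had 4.35 and 4.08 in rehydrated atg5, against 2.93 and 2.31 in rehydrated WT. Its other levels were 4.02 to 4.83 in atg5 and 4.02 to 4.49 in WT, so rehydrated WT alone left the range. Pp1s102_35V6.1 had -1.30 and -0.999 in rehydrated atg5, against -2.24 and -3.33 in rehydrated WT, and both genotypes were below every earlier level. Its ratios of 0.94 and 2.33 on the 2 replicates spread most among the 10. The WT level of -3.33 was the lowest of the 5475 probes on that array. With normexp and loess the log2 ratio of Pp1s102_35V6.1 was 0.59. Pp1s206_16V6.1 had 1.15 and 0.93 in rehydrated atg5, against -1.12 and -0.50 in rehydrated WT. Dried colonies of it had 1.01 and 0.84 in atg5, against 0.87 and 0.97 in WT.

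**Figure D5:**
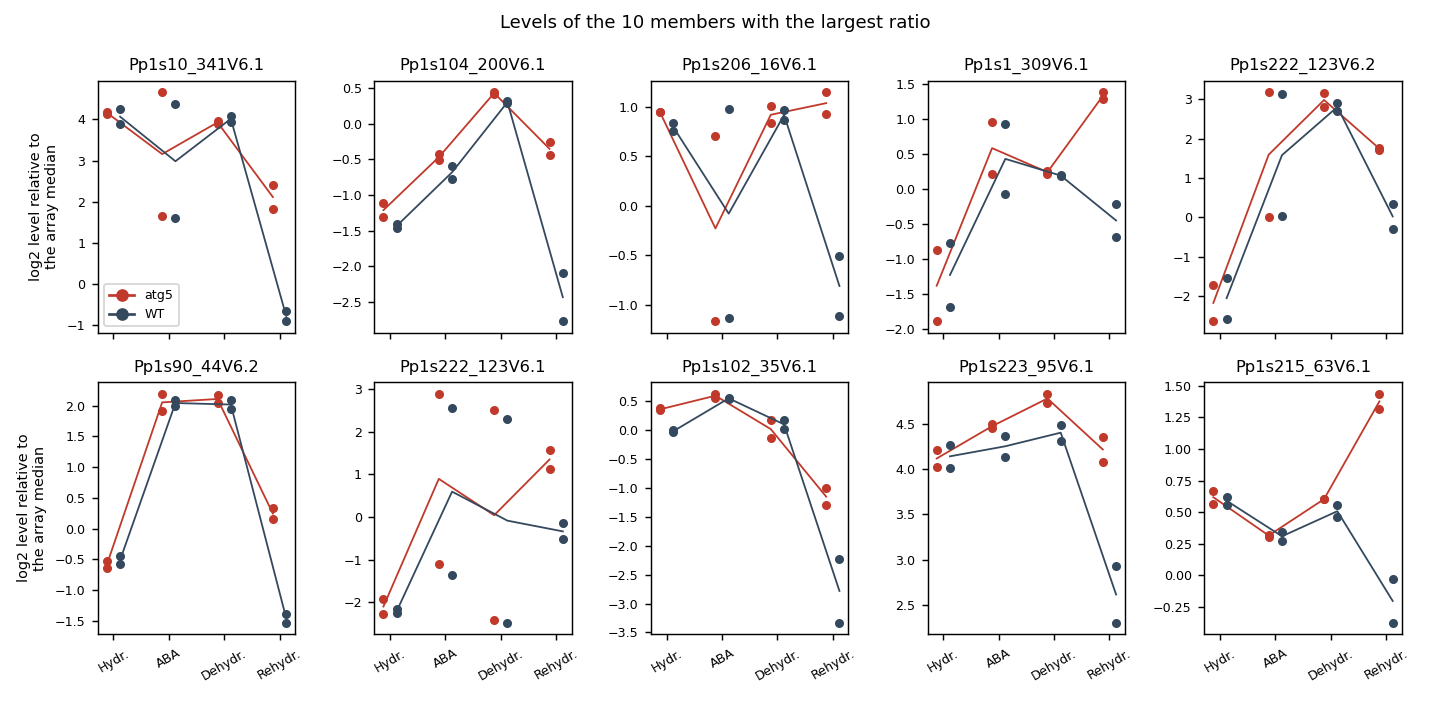
Log2 level relative to the array median (vertical axes, each with its own range) of the 10 probes with the largest ratio in Hydration, ABA, Dehydration and Rehydration, with 2 points per genotype and state and a line through the means. The genotypes run together until Rehydration, where atg5 (red) lies above WT (dark) in every panel.

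Spots of a probe did not always repeat between arrays. The average level differed by a log2 of 2 or more between the replicates of at least 1 treatment at 32 of the 200, or 16%, against 13% of the 5475. Pp1s222_123V6.1 had 2.50 and -2.42 in dried atg5 and 2.30 and -2.48 in dried WT. Both dyes of a spot moved together there, and its ratios on these 2 arrays were 0.20 and 0.056. In Rehydration such gaps occurred at 5 of the 200.

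Several probes stood for the same locus and are not independent measurements of separate genes. Of the 176 loci, 156 had 1 chosen probe, 19 had 2 and 1 had 6. Pp1s72_57 had all 6, for model versions whose ratios in Rehydration ran from 0.83 to 1.55. Pp1s222_123 had ratios of 1.72 and 1.69, Pp1s2_15 had 1.55 and 1.53, and Pp1s54_196 had 1.41 and 1.25. Pp1s75_250 had 1.29 and 1.15, and Pp1s347_22 had 1.27 and 0.98. Within the 20 loci the range between highest and lowest ratio had a median of 0.098.

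A further 87 probes on the array belonged to the chosen loci without being chosen, and 33 of these were well above background throughout. In Rehydration 29 of the 33 were above 0 with a median ratio of 0.57, against 49.9% and -0.0031 over the 5475. Of the 33, 5 reached 0.8 and were left out for another treatment, such as Pp1s1_100V6.2 with 1.51 in Rehydration and 0.58 in Hydration. Probes of the same locus went the other way at 4, among them Pp1s167_34V6.1 at -0.30. These probes measured the same RNA on the same arrays, so they are no independent replicate.

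The loci were spread over 132 scaffolds of the assembly that the identifiers use, with at most 6 on 1 scaffold. Adjacent gene numbers occurred in 2 pairs. Pp1s223_95V6.1 and Pp1s223_96V6.1 had ratios of 1.60 and 1.17 in Rehydration. Pp1s212_8V6.1 and Pp1s212_7V6.2 had 1.07 and 0.89. Another probe of the latter locus, Pp1s212_7V6.1, was not chosen and had 0.20 in Rehydration, with 0.021 and 0.38 on the replicates. The ratio of that locus thus depended on the probe. Pp1s223_96V6.1 had 2.85 and 2.57 in rehydrated atg5, against 1.59 and 1.49 in rehydrated WT. Its average level rose when dried relative to Hydration (0.76 ± 0.0820, n = 2 each, limma adjusted p = 0.00232), whereas that of its neighbour Pp1s223_95V6.1 gave -0.01 ± 0.165 (limma adjusted p = 0.968). On the array surface 41% of the 200 spots lay among the upper rows, above the middle of the slide, and 58.5% left of its middle column, against 43.0% and 54.4% of the 5475.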

How the data were processed

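Two-colour arrays of Physcomitrium patens were read from the deposited scanner files, made with Agilent Feature Extraction 9.5.3.1 per the file headers (9.1 in the submitters' processing notes). Per the file headers, the deposited intensity values are linear and come in 3 forms: the median signal, the local background median and the processed signal, which the software had background-subtracted and dye-normalized. A second table that the authors deposited equalled these processed signals at all 39733 spots and was not used further. An example sheet with 7 columns of other samples was left out.

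The 200 probes were chosen from processed signals by the rule given above. The probes, the comparisons and the rule for naming them were chosen with earlier results of these data known. Named were the 10 largest ratios, the 2 largest called rises and falls of the average level in each comparison, shared or adjacent loci, and the probes nearest the threshold.

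For tests, median signals were corrected with normexp (offset 50) and normalized by loess. Marked outlier spots were dropped, repeat spots of a probe averaged, and 19739 probes were kept if both arrays of some group (atg5 or WT in 1 treatment) measured them well above background. A level measured on 1 array of a treatment enters the fit alone. Ratios (atg5 over WT) and average levels of both channels (these after Aquantile) were fitted with limma 3.58.1 (R 4.3.3) over all 8 arrays, 1 coefficient per treatment, Benjamini-Hochberg adjusted over all probes, two-sided. The fits were tested on simulated data. Same-numbered arrays share a slide, a scan and a dye orientation. Their deviations correlated at 0.272 to 0.537 for ratios and at 0.0254 to 0.0737 for average levels. The numbers thus pair the ratios, but the main ratio fit had no term for this pairing, which the replicate block adds. The number of arrays limits the precision. No probe sequence or gene name was in the files used.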

Additional observations from a re-analysis of the deposited data

How the results depend on the processing

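The number of chosen probes was 138 to 269 over other thresholds, 189 without marked spots, 200 with centring on all probes (146 shared) and 203 and 208 without replicate 2 and without replicate 1 (121 and 125 shared). With normexp and loess ratios it was 40, with 30 shared. Of the chosen probes called higher in atg5, processed signals gave 0 in Hydration, 0 in ABA and 0 in Dehydration (1, 0 and 2 at an unadjusted p under 0.05). Median centring in place of loess gave 0 in each of the 4 treatments (2, 0, 0 and 124 unadjusted). Among probes well above background in all 16 channels they were 18 in Hydration, 3 in ABA and 20 in Dehydration, and with the replicate block 20, 6 and 29. The choice set or capped these ratios in all 4 treatments, and the share of all probes called changed between fits. Nothing about the chosen probes is therefore read from the counts of calls in this paragraph. Leaving out a replicate gave 0 to 1 in Hydration, 0 to 0 in ABA, 0 to 1 in Dehydration and 71 to 126 in Rehydration. Where limma gave 0 there, 6 in Hydration, 2 and 9 in ABA and 13 in Dehydration had an unadjusted p under 0.05.

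For the average level of both genotypes, ABA against Hydration gave 25 to 32 risen and 7 to 19 fallen over the fits without 1 replicate, Dehydration against Hydration 28 to 39 and 8 to 13, Rehydration against Dehydration 12 to 31 and 21 to 66, and Rehydration against Hydration 29 to 48 and 25 to 56. Processed signals gave 8 fallen for ABA and 11 for Dehydration against Hydration, 8 risen for Rehydration against Dehydration and 20 risen against Hydration. Spike-in scaling gave, risen and fallen, 18 and 10, 77 and 2, 0 and 192, and 2 and 173 in that order of comparisons. ABA against Hydration had 31 fallen among probes well above background in all channels and 27 with the 4 arrays compared alone. With those arrays alone Rehydration gave 11 risen and 24 fallen against Dehydration and 27 and 28 against Hydration. The share of all probes called changed with the fit as well. Where it is not given beside a count here or above, nothing is read from that count. With spike-in scaling 81.9% and 66.3% of all probes were fallen in the comparisons of Rehydration with Dehydration and with Hydration. Counts with the replicate block stayed within 1.5 times in all 4 comparisons, for example 27 risen and 54 fallen for Rehydration against Dehydration. Among the alternatives for the counts of probes, 52 stayed within 1.5 times the main count and 54 did not. Among the alternatives for single probes, 351 kept their direction and call, 80 lost the call and 9 reversed. With spike-in scaling the reversed values for Rehydration against Dehydration were -2.27 for Pp1s378_8V6.1, -0.72 for Pp1s275_35V6.4, -0.29 for Pp1s352_59V6.1 and -2.45 for Pp1s215_63V6.1. For Rehydration against Hydration they were -1.25 for Pp1s468_3V6.1, -1.22 for Pp1s104_200V6.1, -0.59 for Pp1s1_309V6.1 and -2.07 for Pp1s223_96V6.1, and with processed signals -0.079 for Pp1s104_200V6.1. The causes were not tested.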
